A study of Mus musculus with 8 samples.

Results

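The comparison was between immune cells of Nr4a1-/- and WT eyes collected on day 3 after laser injury. Its members were all kept barcodes of the libraries Nr4a1-/- laser (1649 cells) and WT laser (3791 cells), that is 5440 of the 11223 kept cells of the series. A barcode was kept if between 200 and 5000 genes were detected in it and mitochondrial genes took no more than 15% of its UMIs (unique molecular identifiers, each a count of 1 captured RNA molecule). All CD45+ cells were summed, and so were lineages gated by marker genes. Antibody-derived tags (ADTs, DNA-barcoded antibodies whose UMIs report surface protein) were counted in the same cells. The laser groups were female WT and Nr4a1-/- mice of 10 to 12 weeks, with 8 laser burns per eye and the eyes of 11 to 12 mice pooled into 1 library a genotype. The control groups were WT and Nr4a1-/- females without laser, with 22 mice pooled in each library. The knockout is germline, so every cell of the eye carries it. GEO's labels give C57BL/6J for every sample, while the study's methods name C57BL/6J for WT and a B6;129S2 stock for Nr4a1-/-. Genotype, strain background and library therefore cannot be told apart, here or in the control pair.

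Laser burns break Bruch's membrane beneath the retina, and vessels grow from the choroid through the break. This choroidal neovascularization draws monocytes, which become macrophages at the lesion, besides the microglia, dendritic cells and lymphocytes of the eye. NR4A1 (also NUR77) is an orphan nuclear receptor and an immediate-early transcription factor, made within minutes of receptor signalling in myeloid cells and lymphocytes. It is required for the non-classical (Ly6C low) monocyte in mice, it is read as a sign of antigen receptor signalling in T and B cells, and it can restrain NF-kB target genes in macrophages. NR4A2 and NR4A3 belong to the same family and share its DNA-binding site.

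The laser libraries differed in depth. The median was 7618 UMIs a cell in WT and 3676 in Nr4a1-/-, with 2534 and 1572 detected genes and 325 and 132 ADT UMIs. The kept cells held 33446781 and 7545184 RNA UMIs and 2039374 and 551408 ADT UMIs, and the control libraries were closer to each other at medians of 5202 and 5478 UMIs. Levels were therefore summed UMIs per 1000000 UMIs of the same cells (CPM). With 1 library a side there is no test: ratios are Nr4a1-/- over WT, and every interval is an exact 95% interval that covers counting error only, not the spread between animals. A gene was counted in a gate at a mean of at least 50 CPM, and called higher or lower past 2-fold with an interval clear of 1. The mean was taken over the pair, so some genes were counted through their higher library alone. Medians of gene lists cover counted members only. Of the barcodes, 2 were shared by both laser libraries. Markers of other tissue were low over all CD45+ cells: 16 photoreceptor genes summed to 57.3 CPM in WT and 39.6 in Nr4a1-/-, 7 red cell genes to 0.299 and 1.33, and 10 endothelial and stromal genes to 111 and 83.1. Their part in the results was not tested.

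The targeted gene was lower in the library labelled Nr4a1-/-, but it was not at 0. Nr4a1 (ENSMUSG00000023034, plus strand of chromosome 15, 101254269 to 101274795, GRCm38) was 277.81 CPM over all WT laser cells and 54.87 over all Nr4a1-/- laser cells, a ratio of 0.198 (0.179 to 0.218). In the control pair the ratio was 0.293. The laser UMIs came from 2307 WT cells and 314 Nr4a1-/- cells, and no cell held more than 1.21% of them. The libraries read 3' ends, so UMIs left in the knockout say nothing of whether protein is made, and the disrupted exon is not stated in the sources used here.

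Nr4a1 was lower in each of the 9 gates, past 2-fold in all but the neutrophils. The lowest ratio was in macrophages, at 197 and 26.7 CPM (0.135, 0.103 to 0.174). NK cells went from 325 to 46.1 CPM (0.142), phagocytes from 258 to 43.5 (0.169), dendritic cells from 301 to 59.6 (0.198) and T cells from 211 to 43.2 (0.205). Classical monocytes stood at 267 and 64.7 CPM (0.243) and microglia at 147 and 44.4 (0.302). B cells went from 413 to 153 CPM (0.371, 0.283 to 0.479). Cells gated as neutrophils had 360 and 191 CPM, a ratio of 0.529 (0.329 to 0.814) that was not past 2-fold.

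Over all cells the other family members were not lower in step. In NK cells all 3 members were below 1 (median log2 ratio -0.54), and in microglia so were both counted ones. Nr4a2 over all cells was 205.5 CPM in WT and 254.7 in Nr4a1-/- (1.24, 1.18 to 1.30), and the control ratio was 1.25. Its ratio reached 1.68 (1.41 to 2.00) in T cells, at 236 and 398 CPM, and was 0.901 (0.778 to 1.04) in NK cells, at 707 and 637 CPM. Nr4a3 over all cells was 191.7 and 200.4 CPM (1.05, 0.988 to 1.11). B cells were the only gate with a call for it, 39.1 against 86.3 CPM (2.21, 1.45 to 3.30), and without the cell richest in it the ratio was 1.93.

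**Figure D1:**
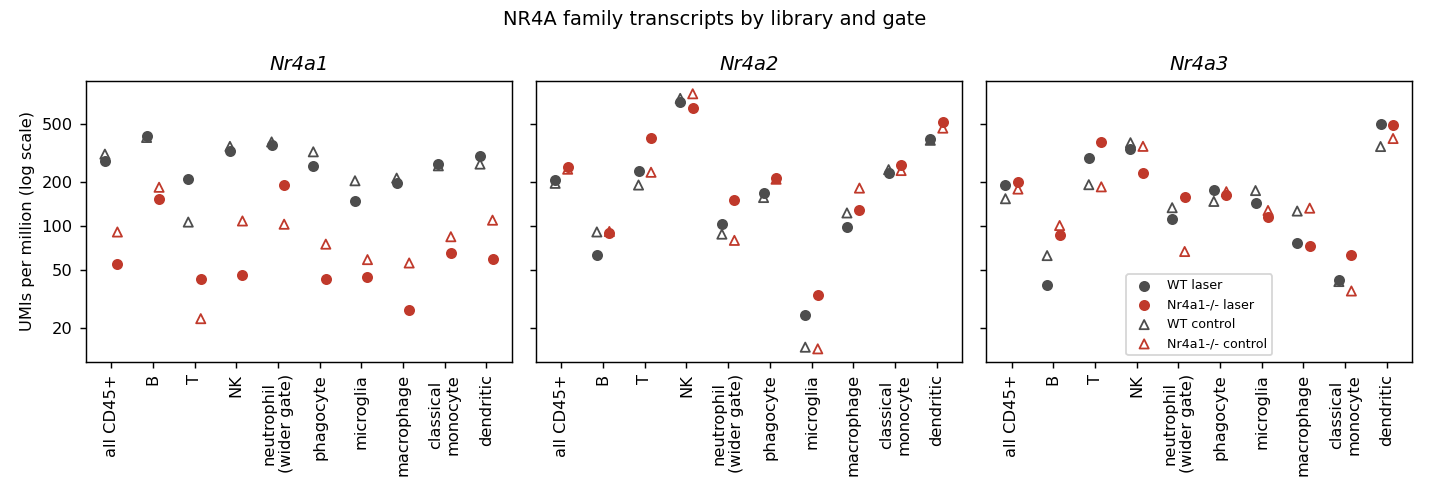
CPM (log axis) of Nr4a1, Nr4a2 and Nr4a3 in all CD45+ cells and 9 gates, grey for WT and red for Nr4a1-/-, filled circles for laser and open triangles for control libraries. Each point is 1 pooled library; Nr4a1 sits lower in red in every gate, from 197 against 26.7 CPM in laser macrophages to 360 against 191 in the wider neutrophil gate.

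The share of non-classical monocytes was the furthest from 1 among the gates, and those of T cells, microglia, neutrophils and unassigned phagocytes also had intervals clear of 1. Gates used panels of lineage genes: a cell needed at least 3 UMIs from its panel and at least 75% of its panel UMIs from that panel (50% among phagocyte types). All 12 phagocyte and all lymphocyte panel genes were detected in both libraries, and none of the 10 leading genes of a gate was a marker of another gate. The gate rule itself keeps out cells rich in markers of other panels, so the latter is no check of gate purity. Non-classical monocytes, the vessel-patrolling Ly6C low type, were 154 of 3791 WT cells (4.06%) and 11 of 1649 Nr4a1-/- cells (0.667%), a ratio of 0.164 (0.0803 to 0.302). In the control pair they were 203 and 8 cells, a ratio of 0.0734. With 11 cells in the knockout no gene level was compared in them.

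Phagocytes as a whole were 52.1% of WT and 49.7% of Nr4a1-/- cells (0.954, 0.878 to 1.04). Among them macrophages were 21.3% and 22.5% of all cells (1.06, 0.931 to 1.20), classical monocytes 5.06% and 4.97% (0.982, 0.749 to 1.28) and dendritic cells 7.10% and 6.43% (0.906, 0.717 to 1.14). Microglia were 10.9% and 7.22% (0.662, 0.536 to 0.814). Phagocytes that met no subtype rule were 3.64% and 7.88% (2.17, 1.69 to 2.77).

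Among lymphocytes, B cells were 10.4% and 10.7% (1.02, 0.851 to 1.22), T cells 12.3% and 8.79% (0.715, 0.590 to 0.864) and NK cells 8.89% and 7.64% (0.860, 0.695 to 1.06). T cells were on the other side of 1 in the control pair (1.18). The planned neutrophil gate held 71 WT and 17 Nr4a1-/- cells (0.550, 0.304 to 0.944). A wider gate, chosen after the data were seen, took cells with at least 0.5% of UMIs from S100a8 and S100a9 and held 108 and 51 (1.09, 0.762 to 1.53); its RNA is described in the following.

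The gates need UMIs, so shallower cells fail them more often, and ungated cells were 13.8% of WT and 21.6% of Nr4a1-/-. With each cell thinned to 2000 UMIs before gating, which left out 246 WT and 419 Nr4a1-/- cells, the ratio was 0.661 for B cells, 0.836 for T cells, 0.736 for NK cells, 1.20 for phagocytes, 0.868 for microglia, 1.62 for classical monocytes, 1.36 for macrophages, 1.33 for dendritic cells and 0.139 for non-classical monocytes. The planned neutrophil gate was at 0.240. The cells left out by thinning depend on RNA content, so it is no second reading of the lymphocyte and neutrophil shares. Nr4a1-/- medians were 1958.5 UMIs in B cells, 1689 in the wider neutrophil gate, 2310.5 in NK cells and 2770 in T cells. In Nr4a1-/- phagocytes the median was 5433. The part of this loss in the thinned shares was not tested. Among phagocyte types, the shares of microglia and non-classical monocytes were below 1 with and without thinning. The thinned interval of microglia, from 0.679 to above 1, held 1.

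**Figure D2:**
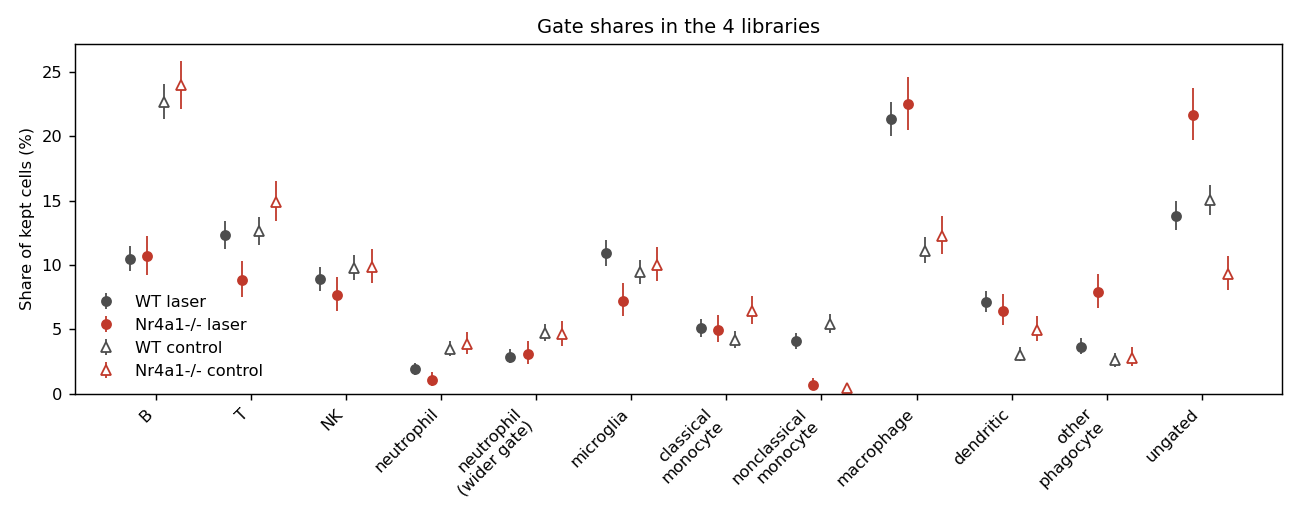
Percent of kept cells in each of 12 classes (the last being ungated cells) for the 4 libraries, with exact 95% binomial bars that cover counting error only. Non-classical monocytes are at 4.06% in WT laser and 0.667% in Nr4a1-/- laser, while macrophages are at 21.3% and 22.5%.

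Over all CD45+ cells few genes differed past 2-fold. Of 3459 counted genes 5 were higher in Nr4a1-/- laser (0.145%) and 19 lower (0.549%). The higher ones were Spp1, Arg1, Dcstamp, the linker histone gene Hist1h1b and the noncoding Gm42418. Spp1 encodes osteopontin, a secreted matrix protein of activated macrophages, and stood at 1287 and 3121 CPM (2.42, 2.39 to 2.46) against a control ratio of 0.551. The lower ones were led by genes of antibody-secreting cells: Jchain, which joins secreted IgA and IgM, had 3515 UMIs in WT and 1 in Nr4a1-/- (0.00126, 3.19e-05 to 0.00703), and Igha had 8426 and 11 (0.00579, 0.00289 to 0.0104). The control pair showed the same, with 5182 and 1 Jchain UMIs. S100a8, a calprotectin subunit of neutrophils and monocytes, was 582 and 215 CPM (0.369, 0.350 to 0.388), and its control ratio was 0.524.

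Genes that moved alike in B cells, T cells, NK cells and phagocytes were mostly not immune genes. Of 2066 genes counted in all 4 gates, 4 were at least 1.5-fold higher in each and 14 at least 1.5-fold lower. The higher ones were Gm42418 (2.07 to 2.29), Cdk8 (1.82 to 2.60), Lars2 (1.76 to 2.76) and Cmss1 (1.75 to 2.37). Gm42418, on chromosome 17 at 39846958 to 39848788, overlaps a ribosomal RNA copy and took 13083 CPM in WT and 28754 in Nr4a1-/-. In the control pair Gm42418 was at 1.01 to 1.25 and Cdk8 at 0.674 to 0.821.

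Of the 14 lower genes, Nr4a1 was the targeted one and most others were short. They included Rps29 (0.401 to 0.470, control 0.532 to 0.545), Rps28, Rpl35, Rpl38, Rps27, Rps21 and Rpl39 of the ribosome, Atp5k, Ndufb1-ps and mt-Nd3 of the mitochondrial respiratory chain, the ubiquitin gene Ubb, and Gm10076 (0.296 to 0.453, control 0.211 to 0.257). The longest annotated transcripts of the 14 had 348 to 2553 bases, against a median of 3530 over the counted genes. The median ratios of ribosomal protein genes were 1.03 in B cells, 1.05 in T cells, 0.942 in NK cells and 1.09 in phagocytes. At least 1.5-fold lower were 8 of 80, 8 of 79, 9 of 79 and 8 of 80. Among all 3459 genes counted over all cells, 64 were called lower at 1.5-fold. In NK cells 56 of the 79 were below 1. Their summed share of UMIs in WT and Nr4a1-/- was 20.7% and 19.6% in B cells and 23.8% and 23.1% in T cells. It was 16.2% and 14.2% in NK cells and 14.7% and 14.3% in phagocytes.

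A NR4A monomer binds the site AAAGGTCA (reverse complement TGACCTTT). It was looked up on both strands from 250 bases before to 50 bases after the start of 20 named genes, using RefSeq promoters of GRCm38.p6. Of these genes 14 matched, with 16 promoters, and 0 of the 16 held the motif, against 495 of all 32851 promoters (1.51%). No match says only that these letters are not in this window.

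Genes near the targeted locus were read because a knockout stock can carry flanking sequence of another strain. Within 10 Mb of Nr4a1, 0 of 32 counted genes were called over all cells and 0 of 31 in phagocytes, and 1 of 38 was called in B cells. On other chromosomes 0.665% were called over all cells, 0.734% in phagocytes and 2.02% in B cells. At such shares a window of this size would hold few calls either way. On the rest of chromosome 15, 1 of 120 counted genes was called over all cells and 1 of 112 in phagocytes. In microglia it was 3 of 113 (2.65%), against 1.38% on other chromosomes. Dcstamp, higher in both pairs in phagocytes, lies on that part of the chromosome. Its link to the targeted locus was not tested. A cluster at the far end of the X chromosome did stand lower. Mid1, a microtubule-bound ubiquitin ligase whose gene spans the pseudoautosomal boundary in C57BL/6 mice (X, 169685199 to 170005736), was 144 and 46.2 CPM in microglia (0.322, 0.208 to 0.476, control 0.641). The noncoding Gm15726 inside it (X, 169979047 to 169985232) was 85.0 and 26.2 CPM in phagocytes (0.309, 0.257 to 0.369, control 0.525). Gm47283, annotated in the part that X and Y share (Y, 90784738 to 90816464), was 536 and 203 CPM in phagocytes (0.380, 0.356 to 0.405, control 0.538), although all mice were female. Arhgap6, the nearest counted gene before Mid1 and chosen after its value was seen, was at 1.16 (1.01 to 1.32).

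Mononuclear phagocytes of the knockout held more RNA of Spp1 and Arg1 and less of the chemokine genes Cxcl1 and Cxcl10 and the interferon-stimulated Rsad2 and Ifit3. Of 3277 counted genes 7 were higher (0.214%) and 18 lower (0.549%). The gate mixes cell types, and their shares of it differed between WT and Nr4a1-/-. Microglia were 20.9% and 14.5%, non-classical monocytes 7.80% and 1.34% and macrophages 40.9% and 45.3%. The part of this mix in the phagocyte ratios was not tested. Spp1 was 1828 CPM in WT and 4465 in Nr4a1-/- (2.44, 2.40 to 2.48), in the opposite direction to the control pair (0.512). Arg1, whose enzyme breaks down arginine, was 64.0 and 145 CPM (2.27, 2.07 to 2.48). Dcstamp, a fusion receptor of osteoclasts and giant cells, was 50.6 and 125 (2.47, 2.24 to 2.73), and was higher in the control pair too (3.04). The division genes Top2a (32.0 and 71.7 CPM, 2.24), Mki67 (35.6 and 75.1, 2.11) and Hist1h1b (24.5 and 90.5, 3.70) were higher after laser and below 1 in the control pair (0.543, 0.721 and 0.596), and each reached a mean of 50 CPM through the knockout alone.

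The lower phagocyte genes were led, after Nr4a1, by Bcl2a1d, a survival gene of the BCL2 family induced by NF-kB. It was 169 and 47.1 CPM (0.279, 0.243 to 0.318, control 0.674), and reads of its near-identical copies may be split between them. Cxcl1, which draws neutrophils, was 99.8 and 42.9 CPM (0.429, 0.372 to 0.494) and above 1 in the control pair (1.71). Cxcl10, an interferon-induced chemokine for T and NK cells, was 196 and 86.7 CPM (0.444, 0.401 to 0.490, control 0.642). Rsad2 (viperin) was 143 and 63.1 CPM (0.441, 0.391 to 0.495) and Ifit3 78.6 and 38.5 (0.489, 0.420 to 0.568), with control ratios of 0.919 and 0.917.

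The lists place these genes. Of 21 chemokine ligand genes 15 were counted, 0 higher and 2 lower, with 11 below 1 and a median log2 ratio of -0.55, against -0.02 over all counted genes and -0.02 for the list in the control pair. Members without a call included Cxcl2 at 2740 and 1579 CPM (0.576), Ccl2 at 1175 and 782 (0.665), Ccl3 at 0.608 and Ccl4 at 0.655. Of 35 interferon-stimulated genes 23 were counted, 2 lower and 18 below 1, median -0.28. All 15 NF-kB feedback genes were counted with 0 calls, 14 below 1 and a median of -0.32. Of 22 cell cycle genes 8 were counted and 2 higher, median 0.32. The 7 counted MHC class II genes had 0 calls and were above 1, median 0.15. Of 11 counted angiogenic genes only Spp1 was called.

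**Figure D3:**
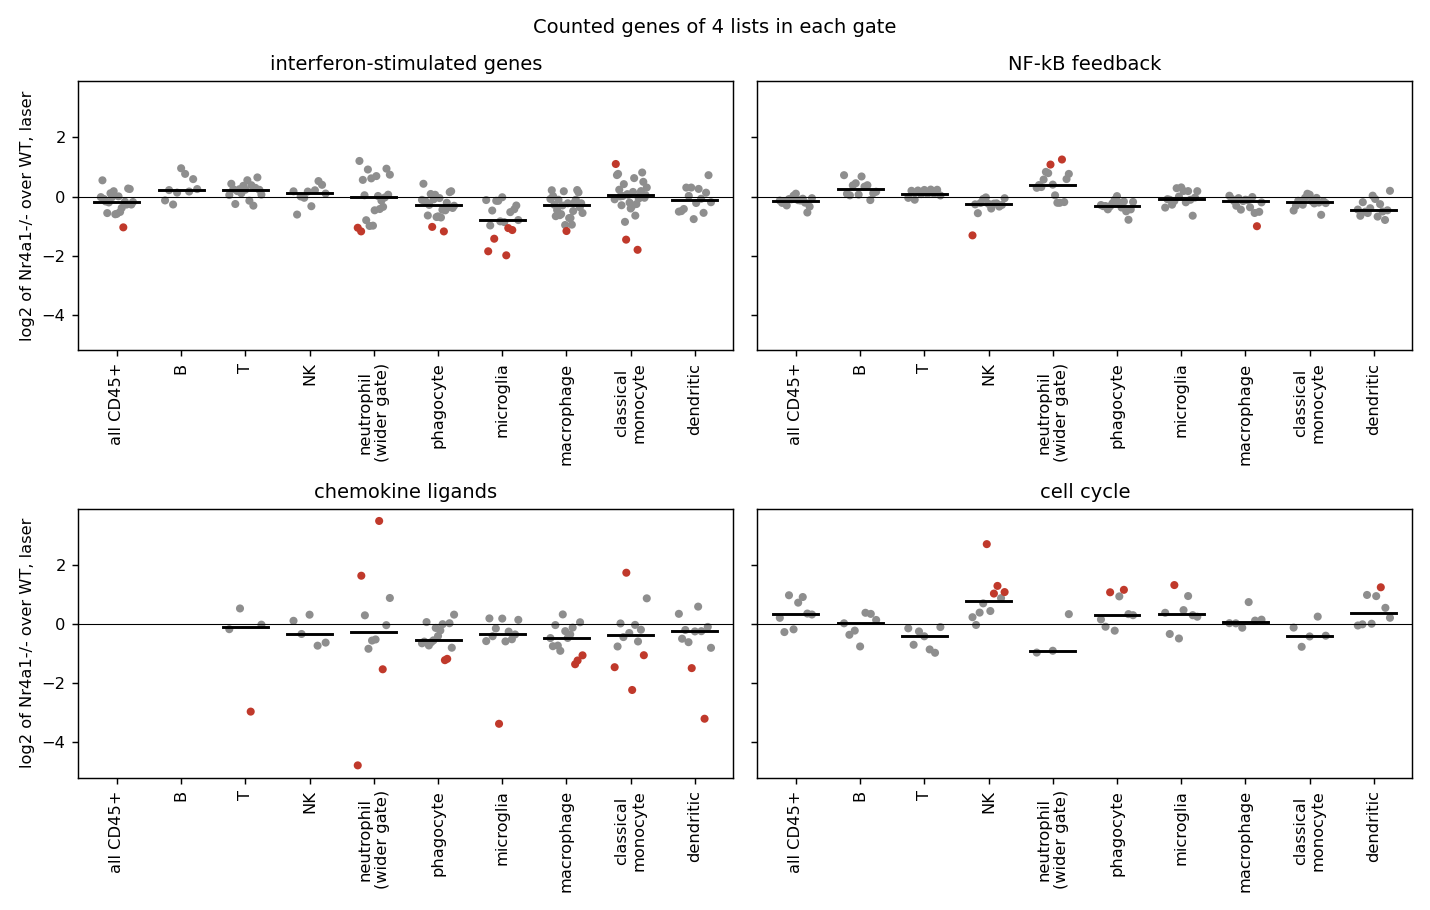
Log2 of the Nr4a1-/- over WT ratio after laser for each counted member of 4 gene lists (panels), by gate on the horizontal axis, with red points for genes past 2-fold, grey for the others and a black bar at the median. The interferon-stimulated genes lie lowest in microglia, with a median of -0.80, and the cell cycle genes highest in NK cells, with a median of 0.79.

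Macrophages, gated by Mrc1, Pf4, Folr2 and like genes, held most of the Spp1 and Arg1 UMIs of the phagocytes and differed in both. Of 3167 counted genes 5 were higher (0.158%) and 21 lower (0.663%). Spp1 was 3833 and 8000 CPM (2.09, 2.05 to 2.12), and in control macrophages 68.2 and 105 CPM (1.54). Arg1 was 125 and 277 CPM (2.21, 2.01 to 2.43), from 84 WT and 47 Nr4a1-/- cells, and in control macrophages it was 1.14 CPM in WT with 0 UMIs in Nr4a1-/-. With every cell thinned to 2000 UMIs the ratios were 2.18 for Spp1 and 2.09 for Arg1. The study cites lower Arg1 and higher Tnf, Il12, Nos2 and Cd36 for hyper-activated Nr4a1-/- macrophages, so higher Arg1 in this gate was opposite in direction to that profile. Genes of Il12 and Nos2 were not counted here. Within its own cluster of Vegfa and Spp1 macrophages, the study found no difference in these genes between the lasered genotypes. The gate here is wider than that cluster, so the measures are not alike. The other counted genes of the hyper-activation list had no call: Tnf was 220 and 150 CPM (0.679), Il1b 965 and 772 (0.800) and Cd36 317 and 352 (1.11). Vegfa, the main vessel growth factor, was 56.0 and 67.8 CPM (1.21), and 1 of 12 counted angiogenic genes, Spp1, was called.

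The chemokine genes Cxcl2, Cxcl1 and Cxcl10 were lower in macrophages. Of 14 counted chemokine ligand genes these 3 were called lower and 12 were below 1, with a median of -0.47 against 0.02 over all genes and 0.07 for the list in the control pair. The abundant neutrophil chemokine Cxcl2 was 5379 and 2593 CPM (0.482, 0.469 to 0.495, control 0.869). Cxcl1 was 206 and 80.5 CPM (0.390, 0.335 to 0.453, control 1.87) and Cxcl10 179 and 76.2 (0.426, 0.364 to 0.497, control 0.545). Bcl2a1d was 122 and 29.2 CPM (0.240, 0.185 to 0.305, control 0.912) and Tnfaip2, a TNF-induced gene, 326 and 162 (0.498, 0.447 to 0.554). Oasl1 was 96.0 and 33.5 CPM (0.348) and the ubiquitin-like Isg15 218 and 97.0 (0.444). In the interferon list, 20 of 25 counted genes were below 1 with 1 call, median -0.30. Antigen presentation had 0 calls: 6 of 7 MHC class II genes were below 1 (median -0.30, control 0.05; Cd74 was 10334 and 8148 CPM, 0.788), and so were 10 of 12 MHC class I genes (median -0.29). Glycolysis genes had 0 calls of 12, from Eno1 (0.522) to Pgam1 (1.68).

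Microglia, the resident phagocytes of the retina, showed the broadest shift of the interferon list. Of 3346 counted genes 21 were higher (0.628%) and 27 lower (0.807%). Of 35 interferon-stimulated genes 17 were counted, all below 1 and 5 called lower, with a median of -0.80 against -0.01 over all genes. All 35, counted or not, summed to 4050 and 2773 CPM, and to 2237 and 1769 in the control pair. Rsad2 was 95.1 and 23.1 CPM (0.243, 0.128 to 0.420), Gbp7 86.5 and 23.1 (0.267), Ifit3 93.1 and 33.8 (0.363) and Slfn8 150 and 67.5 (0.450). Rsad2, Gbp7 and Ifit3 were under 50 CPM in the knockout, so each was counted through WT alone. Rsad2 and Ifit3 were low in the control knockout as well (0.138 and 0.0747), Gbp7 less so (0.886), and the list's control median was -0.19 over 11 counted genes. Ccl5, a chemokine for T cells and monocytes, was 119 and 10.7 CPM (0.0895, 0.0327 to 0.196), from 92 and 6 cells, and was 1.51 in the control pair. H2-Q7, a class I gene with close copies, was 157 and 76.4 CPM (0.486).

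Genes of the resting microglial state stayed near 1. Of 13 homeostatic genes 1 was called, and Cx3cr1 (1483 and 1306 CPM) and Cst3 (0.976) had none, with a median of -0.04. The called one, Fcrls, was 201 and 423 CPM (2.10) and 1.76 without its richest cell. Higher genes included Fn1, fibronectin, at 57.2 and 245 CPM (4.29, 3.45 to 5.33, control 0.388), the matrix glycoprotein Thbs1 at 12.4 and 94.2 (7.60, 5.06 to 11.4, control 3.70) and Dcstamp at 18.2 and 87.1 (4.78, control 9.98). Mki67 was 36.4 and 90.7 CPM (2.49) and S100a4 53.4 and 155 (2.90). Thbs1, Dcstamp and Mki67 were under 50 CPM in WT and were counted through the knockout. For Spp1 the 348 and 3731 CPM (10.7) rested on 1 Nr4a1-/- cell with 89.4% of its UMIs, and the ratio without it was 1.59. Without the richest cell of each gene 8 of the 21 higher and all 27 lower calls remained.

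Classical monocytes, the Ly6C high cells that enter the lesion, were lower in the chemokine genes Ccl7, Ccl12 and Cxcl2. Of 3173 counted genes 16 were higher (0.504%) and 41 lower (1.29%). Of 12 counted chemokine ligand genes 1 was higher and these 3 lower, with 9 below 1 and a median of -0.37 (control -0.10). Ccl7 was 269 and 56.6 CPM (0.210, 0.139 to 0.307), Ccl12 74.6 and 26.3 (0.353) and Cxcl2 1228 and 593 (0.483), and all were below 1 in the control pair (0.582, 0.138 and 0.382). Ly6a (Sca-1) was 250 and 54.6 CPM (0.218, 0.142 to 0.321) against a control ratio of 2.70. Rsad2 was 314 and 89.0 CPM (0.284) and Ifit3 136 and 48.5 (0.357). Gbp2, a guanylate-binding protein induced by interferon gamma, was higher at 118 and 253 CPM (2.14, 1.71 to 2.66), and the interferon list was split, 16 of 29 above 1 with a median of 0.04. The scavenger receptor gene Cd36 was 78.8 and 24.3 CPM (0.308) and Spp1 311 and 82.9 (0.267), opposite to the macrophages. The 6 counted MHC class II genes were above 1 without a call (median 0.44, control 0.75). Ccl5 was at 3.34 through 1 Nr4a1-/- cell with 83.3% of its UMIs and at 0.784 without it, and 7 of the 16 higher and 40 of the 41 lower calls remained without the richest cell.

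Dendritic cells were lower in the chemokine genes Cxcl10 and Ccl5 and higher in Top2a and linker histone genes. Of 2968 counted genes 11 were higher (0.371%) and 21 lower (0.708%). Cxcl10 and Ccl5 were the called ones of 11 counted chemokine ligand genes (9 below 1, median -0.24, control -0.15). Cxcl10 was 136 and 14.2 CPM (0.104, 0.0518 to 0.188, control 0.294), from 39 and 7 cells, and Ccl5 was 814 and 290 (0.357, 0.310 to 0.408, control 0.901). Eno1, a glycolytic enzyme with close copies, was 88.4 and 25.9 CPM (0.293) and Bcl2a1d 248 and 73.8 (0.298). Top2a was 56.3 and 133 CPM (2.37, 1.86 to 3.01), Hist1h1b 43.7 and 241 (5.52) and Hist1h1e 41.1 and 126 (3.06), each below 1 in the control pair (0.373, 0.491 and 0.342). Hist1h1b and Hist1h1e were under 50 CPM in WT and were counted through the knockout. Top2a was the 1 call of 8 counted cell cycle genes, of which 6 were above 1 (median 0.39, control -0.27). Immediate-early genes had 0 calls of 18 but 17 were below 1 (median -0.33, control 0.21), among them Egr1 at 370 and 214 CPM (0.578) and Zfp36 at 533 and 323 (0.605). The 10 MHC class II genes lay 5 on either side of 1. Retnla at 11.5 and Lyz1 at 59.2 came mostly from 1 cell each.

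T cells of the knockout held less RNA of the interleukin 17 program. Of 3302 counted genes 24 were higher (0.727%) and 33 lower (0.999%). Of 15 program genes 9 were counted, and 7 were lower with 0 higher, a median of -1.08 against 0.01 over all genes. All 15, counted or not, summed to 1910 and 954 CPM, and to 550 and 354 in the control pair. Cd163l1, a scavenger receptor of gamma delta T cells, was 166 and 43.2 CPM (0.260, 0.153 to 0.415), from 44 WT and 5 Nr4a1-/- cells. Tmem176a and Tmem176b, membrane proteins of type 17 cells, were 109 and 33.6 CPM (0.308) and 101 and 33.6 (0.334). Cd163l1, Tmem176a and Tmem176b were under 50 CPM in the knockout, so each was counted through WT alone. Il17a was 188 and 83.9 CPM (0.447), and 94.3% of its 35 Nr4a1-/- UMIs came from 1 cell, so that the ratio without the richest cells was 0.0462. Maf (0.467), the delta chain gene Trdc (0.474) and Il1r1 (0.476) were also called, and Rora (0.679) was not. In the control pair only 2 of the 15 were counted and none was called (median -0.59).

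Outside that program, Cxcl10 was 102 and 11.99 CPM in T cells (0.117, 0.0378 to 0.277, control 0.250), from 46 and 3 cells. Tnfsf11 (RANKL), the ligand that drives osteoclasts, was 103 and 26.4 CPM (0.256, 0.126 to 0.464, control 0.589). Gzmb (granzyme B) was 99.8 and 31.2 CPM (0.312). Iigp1, an interferon-induced GTPase, was higher at 39.0 and 127 CPM (3.26, 2.31 to 4.54, control 0.718) and held without its richest cell (3.43). Ifng was 81.2 and 182 CPM (2.24) and the costimulatory receptor Tnfrsf4 60.9 and 139 (2.28), but without the richest cell these were 1.41 and 1.91. Naive and memory genes had 0 calls of 10 (median -0.08). Activation and checkpoint genes had 1 call, Tnfrsf4, of 12 (median -0.03). The 7 counted cell cycle genes were below 1 without a call (median -0.41), and 14 of 17 interferon-stimulated genes were above 1 without a call (median 0.23). Of the 24 higher calls 9 remained without the richest cell, and 32 of the 33 lower ones.

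NK cells were higher in Mki67, Top2a and histone genes. Of 3522 counted genes 34 were higher (0.965%) and 38 lower (1.08%). Of 22 cell cycle genes 10 were counted, 9 of them above 1 and 4 called. Their median was 0.79, against 0.02 over all genes and 0.17 for the list in the control pair. All 22, counted or not, summed to 3036 and 4250 CPM, and to 2592 and 2813 in the control pair. Mki67 was 22.4 and 147 CPM (6.55, 4.29 to 10.0), from 11 WT and 8 Nr4a1-/- cells, and Top2a was 60.2 and 147 (2.44, 1.72 to 3.42). Stmn1 (2.05) and Tubb5 (2.12) were just past 2-fold and dropped to 1.84 and 2.00 without the richest cell. The histone genes Hist1h1b (69.4 and 585 CPM, 8.43) and Hist1h1e (144 and 571, 3.95) and the replication factor Pclaf (35.2 and 161, 4.58) were higher too. Klra5, a Ly49 receptor gene with close copies, was 34.7 and 107 CPM (3.07, 2.00 to 4.65) against a control ratio of 0.162. Mki67, Pclaf and Klra5 were under 50 CPM in WT, so each was counted through the knockout alone.

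Killing genes of NK cells stayed near 1. Of 11 counted effector genes 1 was called, Ifng at 104 and 331 CPM (3.18), with 62.6% of its Nr4a1-/- UMIs in 1 cell and a ratio of 1.55 without it. Of 16 lectin-like receptor genes Klra5 alone was called, and of 11 maturation genes none (median -0.12). Signal-induced genes leaned down: all 13 counted NF-kB feedback genes were below 1 (median -0.25, control 0.17) with 1 call, Bcl3 at 74.98 and 28.8 CPM (0.384, 0.181 to 0.727). Of 15 immediate-early genes 14 were below 1 with no call (median -0.36, control 0.12). Lgals3 (galectin 3) was 224 and 63.4 CPM (0.282, 0.175 to 0.433). The Retnla call, 647 and 2.88 CPM, came from 1 WT cell with 99.2% of its UMIs.

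B cells differed in genes of antibody-secreting cells and in Pycard and Anxa2, and the named genes of both kinds were low in the control knockout as well. Of 3395 counted genes 27 were higher (0.795%) and 42 lower (1.24%). Jchain had 3504 UMIs in 15 of the 396 WT cells and 0 in the 176 Nr4a1-/- cells, where 3 UMIs would have been 7.19 CPM against 1672 in WT. In control B cells the ratio was 0.000406 for Jchain and 0.00257 for Igha. Igha had 8325 and 1 UMIs (0.000603, 1.53e-05 to 0.00336), and the kappa constant gene Igkc was 20916 and 4942 CPM (0.236, 0.226 to 0.247, control 0.389). Xbp1, the transcription factor of secretion, was 130 and 23.97 CPM (0.185, 0.0876 to 0.345, control 0.332). Pycard, the inflammasome adaptor ASC, was 385 and 64.7 CPM (0.168, 0.110 to 0.246) with a control ratio of 0.177, and Anxa2 was 161 and 59.9 (0.372, control 0.284), but 2.67 (1.14 to 5.96) with cells thinned to 2000 UMIs before gating. Stromal genes were read in WT cells of this gate and not in the knockout: Col3a1 had 70 and 0 UMIs, Mgp 61 and 0 and Col1a2 50 and 0, and of the 10 endothelial and stromal markers 2 were at 0 in WT and 9 in Nr4a1-/-, with sums of 362 and 292 CPM, mostly Pecam1. In control B cells these genes were low in the knockout too, with ratios of 0.0282 for Col3a1, 0.0161 for Mgp and 0 for Col1a2. The part of stromal RNA in the B cell calls was not tested. Genes of the naive B cell receptor had no call: Ighm was 1148 and 1544 CPM (1.34) and Ighd 722 and 733.

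Signal-induced genes leaned up in B cells, the other way from NK and dendritic cells, a difference that was not tested. Of 15 counted immediate-early genes 13 were above 1 (median 0.35, control 0.13), among them Fos at 124 and 237 CPM (1.92, 1.51 to 2.43) and Atf3 at 63.4 and 110 (1.74). The 1 call was Jun at 77.8 and 187 CPM (2.40), with 44.9% of its Nr4a1-/- UMIs in 1 cell and 1.44 without it. Of 12 NF-kB feedback genes 11 were above 1 with 0 calls (median 0.25), and of 10 MHC class II genes 9 were above 1 with 0 calls (median 0.23, control 0.30), while the median over all genes was 0.06. Genes of B cell activation had 0 calls of 13. Of the 27 higher calls 13 remained without the richest cell, and all 42 lower ones.

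The wider neutrophil gate was the thinnest, with 120724 Nr4a1-/- UMIs, and had the most calls. Of 3241 counted genes 217 were higher (6.7%) and 98 lower (3.02%), so single genes in it weigh less. RNA of the secreted Lcn2, Wfdc21, Wfdc17 and Mmp8 was lower. Lcn2 (lipocalin 2) was 516 and 133 CPM (0.257, 0.145 to 0.423, control 1.44), Wfdc21 778 and 149 (0.192), Wfdc17 1333 and 306 (0.230) and the collagenase Mmp8 156 and 58.0 (0.372). Of 7 counted granule genes 3 were lower and 2 above 1 (median -1.07), and the 15 of the list summed to 4772 and 4324 CPM. Inflammatory genes leaned up, 16 of 19 above 1 with 3 calls (median 0.35 against 0.14 over all genes). Tnf was 436 and 1035 CPM (2.38, 1.91 to 2.95, control 0.547). Ccl3, a chemokine of activated neutrophils, was 378 and 1176 (3.11, 2.51 to 3.85), but 0.700 with cells thinned to 2000 UMIs, which left 18 Nr4a1-/- cells. Ctla4 and Icos, T cell genes, were at 133 and 124 CPM in the knockout against 1.61 and 1.61 in WT. Whether cells of other types sat in this gate was not tested.

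The laser pair and the control pair have no library in common, and their calls were set side by side. Among lower calls over all cells, 5 of 19 were also called lower in the control pair, which is 26.3% of the laser calls and 41.7% of the control calls. In B cells it was 13 of 42 (31.0% and 54.2%), in classical monocytes 11 of 41 (26.8% and 35.5%) and in phagocytes 3 of 18 (16.7% and 11.5%). Of all genes counted in these control gates 0.335%, 0.716%, 0.973% and 0.772% were called lower. The overlap was 3 of 33 in T cells, 3 of 27 in microglia, 3 of 21 in macrophages and 4 of 21 in dendritic cells (control shares 0.321%, 0.285%, 0.306% and 0.745%). In NK cells 3 of 38 were called lower in control and 3 higher (control share of lower calls 0.287%). Among higher calls it was 0 of 5 over all cells, 0 of 27 in B cells, 0 of 24 in T cells, 0 of 34 in NK cells and 1 of 7 in phagocytes, that 1 being Dcstamp. Of these higher genes only 1, 13, 8, 15 and 3 were counted in the control pair, where 0.112%, 0.239%, 0.0963%, 0.144% and 0.208% of all counted genes were called higher, so little overlap could have been seen. Heat shock genes were the reverse: 7 of 11 counted chaperone genes were higher in control B cells and 6 of 12 in control phagocytes, against 0 of 7 and 0 of 9 after laser.

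**Figure D4:**
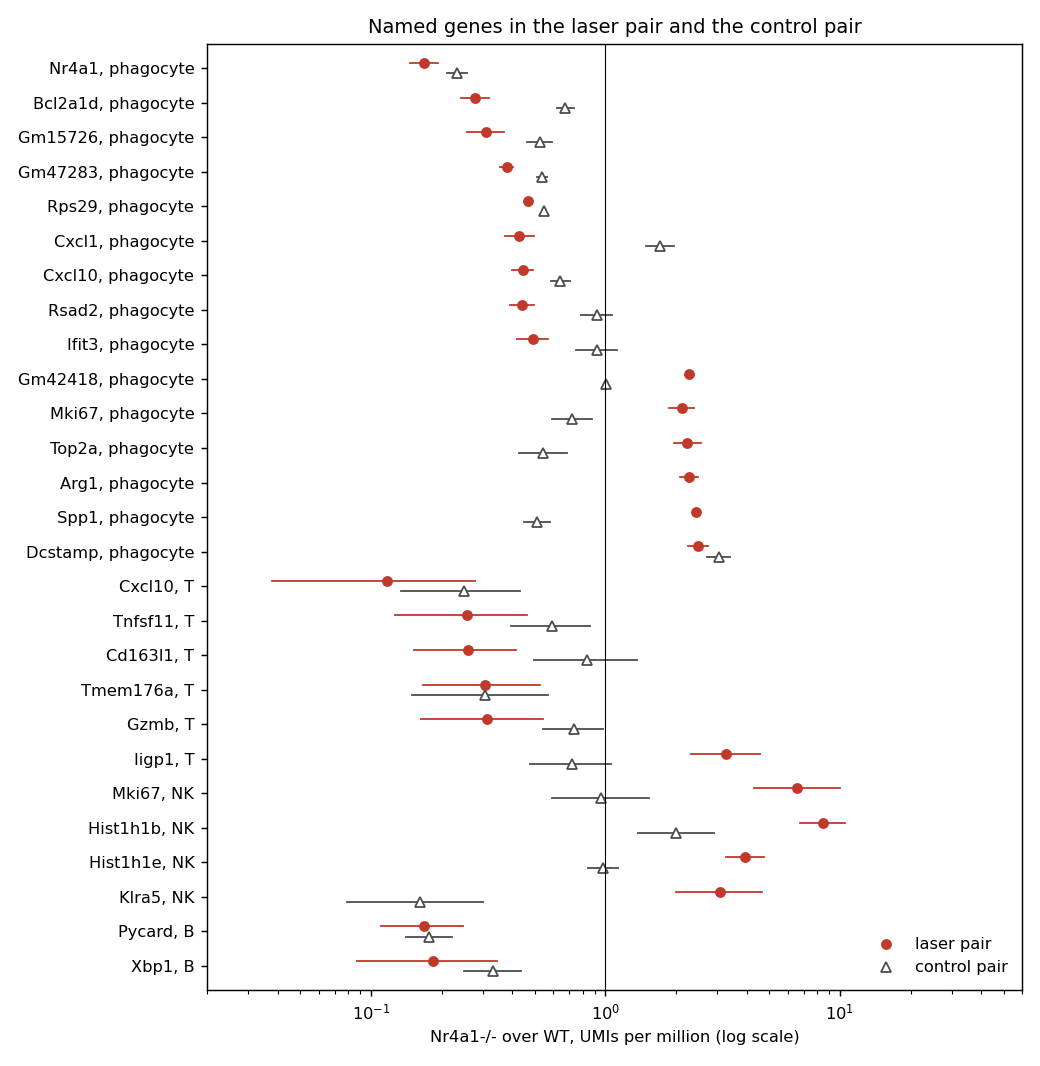
Nr4a1-/- over WT ratio (log axis) with exact 95% intervals for 27 gene and gate pairs, filled red circles for the laser pair and open grey triangles for the control pair, with a line at 1. Nr4a1 in phagocytes and Pycard in B cells sit low in both pairs (Pycard 0.168 and 0.177), while Spp1 in phagocytes is at 2.44 after laser and 0.512 in control.

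Surface protein was read as UMIs of each of 87 ADTs per 10000 ADT UMIs of the gate. An ADT was counted at a mean of at least 50 and called past 1.5-fold, so values are shares that rise when others fall. There were no isotype controls, and the median was 132 ADT UMIs a cell in Nr4a1-/-. Single cells held much of some sums, so each ratio was also taken without the richest cell and with every cell weighing the same, both added after the data were seen.

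CD45, the pan-leukocyte protein that was also used in the sort, was lower in most knockout gates. In T cells it was 2234 and 1300 per 10000 (0.582, without the richest cell 0.534, equal weights 0.528, control 0.697). In NK cells it was 2861 and 1848 (0.646, 0.625 and 0.550), where the control pair stood at 1.70. In phagocytes it was 1863 and 960 (0.515, 0.519 and 0.591, control 0.618) and in dendritic cells 1390 and 626 (0.451, 0.445 and 0.516). Its RNA, Ptprc, was at 1.16, 1.12, 0.980 and 1.08 in these gates. In B cells CD45 read 1.82 through 1 cell and 0.314 without it.

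CD54 (ICAM1, the ligand of the integrin LFA-1) was higher in several gates. In T cells it was 196 and 571 per 10000 (2.91, 2.83 and 2.57, control 0.988) and in NK cells 419 and 1001 (2.39, 2.30 and 1.86, control 2.62). In phagocytes it was 307 and 543 (1.77, 1.61 and 1.64, control 1.82), with Icam1 RNA at 0.800. CD8a in T cells was at 1.64 (control 0.647) with its RNA at 0.792.

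Among myeloid proteins, CD11a, the alpha chain of LFA-1, was 120 and 63.9 per 10000 in phagocytes (0.532, 0.528 and 0.572, control 0.565), and its RNA Itgal was at 0.429. Non-classical monocytes were 7.80% of WT and 1.34% of Nr4a1-/- phagocytes after laser, and 15.1% and 1.08% in control. Their part in the phagocyte ratios was not tested. CD64, the high-affinity IgG receptor, was 65.0 and 41.2 in phagocytes (0.633, 0.626 and 0.648, control 81.8) and 96.0 and 49.2 in macrophages (0.512, 0.505 and 0.649, control 100.7), with Fcgr1 RNA at 0.893 and 0.852. CD36 was 29.7 and 145 in phagocytes (4.87, 3.32 and 3.14, control 1.82), with Cd36 RNA at 0.936. Several large ratios belonged to 1 cell each: P2Ry12 in microglia was at 0.0253 and 0.596 without the richest cell, CD3 in T cells at 0.168 and 0.813, CD11c in dendritic cells at 15.6 and 1.40, and CD172a in macrophages at 4.12 and 0.518.

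Counts of called ADTs were high everywhere, so 1 call says little. Higher and lower ADTs were 7 (33.3%) and 7 (33.3%) of 21 over all cells, 1 (6.67%) and 6 (40%) of 15 in B cells, 5 (29.4%) and 3 (17.6%) of 17 in T cells, and 6 (42.9%) and 4 (28.6%) of 14 in NK cells. They were 9 (52.9%) and 2 (11.8%) of 17 in the wider neutrophil gate, 7 (31.8%) and 6 (27.3%) of 22 in phagocytes, and 8 (36.4%) and 1 (4.55%) of 22 in microglia. They were 6 (25%) and 10 (41.7%) of 24 in macrophages, 7 (43.8%) and 4 (25%) of 16 in classical monocytes, and 2 (22.2%) and 2 (22.2%) of 9 in dendritic cells. With both checks on single cells, 2 higher and 2 lower calls were kept over all cells, 0 and 1 in B cells, 5 and 1 in T cells, 3 and 2 in NK cells, 7 and 1 in the wider neutrophil gate, 2 and 3 in phagocytes, 0 and 0 in microglia, 2 and 3 in macrophages, 2 and 0 in classical monocytes and 1 and 1 in dendritic cells. In B cells 1 Nr4a1-/- cell held 40.4% of all ADT UMIs. Protein and RNA of the same gene lay on the same side of 1 for 4 of 8 called ADTs with counted RNA in T cells, 8 of 12 in phagocytes, 9 of 12 in macrophages and 0 of 5 in microglia.

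**Figure D5:**
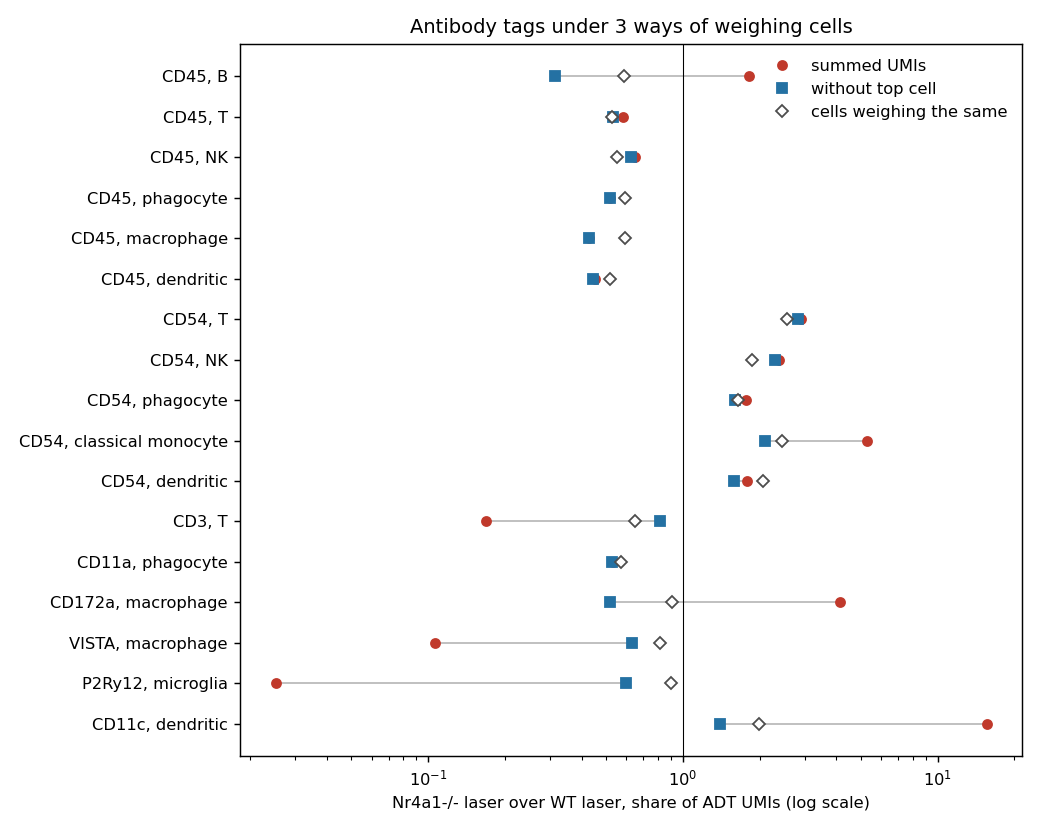
Nr4a1-/- over WT ratio of ADT shares after laser (log axis) for 17 ADT and gate pairs, with 1 symbol each for summed UMIs, sums without the richest cell and equal weight per cell, and a line at 1. CD54 in T cells keeps its place under all 3 readings (2.91, 2.83 and 2.57), while CD11c in dendritic cells moves from 15.6 to 1.40 without its richest cell.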

How the data were processed

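Eyes were pooled by group, CD45-enriched, stained with ADTs and sorted, and RNA and ADT libraries were made with a 3' droplet kit (named v2 in the labels and v3 in the study's methods). Per the labels and the study's methods the authors used Cell Ranger 7.0.1 and mm10, and they deposited unnormalized counts of UMIs per gene and ADT for called cells, which were used as deposited. The genotype and treatment fields of all ADT samples read Nr4a1-/- sham, against their titles, so these samples were grouped by title.

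Barcodes outside 200 to 5000 genes or above 15% of UMIs from mitochondrial genes were dropped. The upper limit was the only step against doublets, and no doublet caller was run. Cells were gated by panels of 4 to 12 marker genes, and counts were summed per library and gate. Gates with fewer than 50 cells in a library got no gene comparison. Ratios carry exact conditional binomial intervals and shares exact Clopper-Pearson intervals (scipy 1.17.1, with Python 3.11.15, numpy 2.4.6, pandas 2.3.3 and matplotlib 3.10.9), and the ratio code was tested on simulated data. The members, panels and 32 gene lists were chosen with earlier results of these data known. Genes named are up to 6 a direction in each gate, ranked by the interval bound nearest to 1, without gate genes, variable receptor genes and possible free RNA (a CPM under 10% of that in another lineage), up to 4 called members of each list, genes that moved alike in 4 gates and the NR4A family. Uncalled list members were added as examples after their values were seen. Gene positions are from GENCODE M21 on GRCm38, where 32158 of 32285 symbols matched. edgeR 4.0.16 (R 4.3.3) gave TMM factors for 1 of the 17 alternatives, which the closing section covers. Some measured genes and ADTs are not reported here.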

Additional observations from a re-analysis of the deposited data

Results flagged for a closer look

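Each result here was called in the laser pair and called the opposite way in the control pair (for the share, with both intervals clear of 1), with 1 library a group, so the difference between pairs was not tested. Values are Nr4a1-/- over WT, the laser pair first. The share of T cells was 0.715 after laser and 1.18 in control.

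In dendritic cells Top2a and 3 histone genes were called in opposite directions: Top2a was at 2.37 and 0.373, Hist1h4d at 2.58 and 0.194, Hist1h1e at 3.06 and 0.342 and Hist1h1b at 5.52 and 0.491. Other cell cycle genes were not, with Tuba1b at 1.47 and 1.22 and Pcna at 1.01 and 2.01. In microglia Spp1 was at 10.7 and 0.0594, and 89.4% of its Nr4a1-/- laser UMIs came from 1 cell, and it was 0.314 with cells thinned to 2000 UMIs before gating.

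Among ADTs of lymphocytes, CD45 was at 1.82 and 0.648 in B cells, where the laser ratio was 0.314 without its richest cell and so on the side of the control pair, and at 0.646 and 1.70 in NK cells. In T cells CD8a was at 1.64 and 0.647 and Ly-6C at 0.384 and 5.98.

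Among ADTs of phagocytes, CD64 was at 0.633 and 81.8, CD172a at 4.39 and 0.631 and VISTA at 0.192 and 2.56. In macrophages CD64 was at 0.512 and 100.7, CD86 at 0.526 and 3.14, CX3CR1 at 0.634 and 1.54, VISTA at 0.106 and 2.65 and Podoplanin at 0.653 and 2.05. In classical monocytes CX3CR1 was at 0.594 and 1.57. In dendritic cells CD11c was at 15.6 and 0.0844 and CD90.2 at 0.627 and 1.72. Ratios far from 1 in ADTs often rest on 1 cell. No such check is given here for the control ratios, among them those of CD64 and Ly-6C. Without the richest cell the laser ratio was 0.709 for CD172a and 0.724 for VISTA in phagocytes, 0.633 for VISTA in macrophages, 0.773 for Ly-6C in T cells and 1.40 for CD11c in dendritic cells.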

How the results depend on the processing

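No paired analysis was possible because each group is 1 library and no test was run. Calls number 5 higher and 19 lower genes over all cells, 145 and 241 gene and gate pairs and 42 and 36 ADT pairs. Of the alternatives for shares and counts of calls 95 values stayed within their limits and 31 moved, and the cause was not tested. For the other results 1815 values stayed, 346 moved and 14 turned direction. Over all results, thinning before gating left 94 values in place, moved 78 and turned 6. With thinning after gating these numbers were 127, 92 and 2. Thinning cells to 2000 UMIs before gating gave shares of 0.661 (B), 0.240 (neutrophil), 1.20 (phagocyte), 0.868 (microglia), 1.62 (classical monocyte), 1.36 (macrophage) and 1.33 (dendritic) and 226 higher pairs, without classical monocytes and dendritic cells, which then held under 50 Nr4a1-/- cells. Thinning after gating gave 362 and 425 pairs. The stricter gate gave 0.585 (T), 0.865 (phagocyte) and 0.0494 (non-classical monocyte), and the wider neutrophil gate 1.09. Without an upper gene limit 3 genes were higher over all cells. Without a low filter calls were 234 and 564 over all cells and 2343 and 1868 pairs, at 100 CPM 2 higher over all cells and 52 and 132 pairs, and at 1.5-fold 24 and 64 over all cells and 815 and 1045 pairs. Leaving out the richest cell left 80 higher pairs and 24 higher ADT pairs, equal cell weights 18 and 12 ADT pairs, and scaling by the median of ratios 27 higher ADT pairs. Directions turned for P2rx7 in T cells (0.287 thinned before gating, 0.467 in the stricter gate, 0.513 without the richest cell), Spp1 in microglia (0.314 thinned before gating), Fabp5 in microglia (0.968 thinned before and 0.581 after gating), Anxa2 in B cells (2.67 thinned before gating), Nr4a3 in T cells (0.828 and 0.802 thinned before and after gating), Nr4a3 in phagocytes (1.09 thinned before gating, 1.02 without the gene limit), Retnla in dendritic cells (0.649) and Ifng in NK cells (0.914) in the stricter gate, and Ccl5 in classical monocytes (0.784 without the richest cell). With 1 library a side, differences between animals cannot be seen at any depth.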

Other observations

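Several other gene lists had few calls after laser. Chemokine receptor genes had 0 calls in every gate, with all 7 counted ones below 1 in phagocytes (median log2 ratio -0.10) and all 6 in macrophages (-0.21). Genes of lymphocyte trafficking under KLF2 had 0 calls of 10 in B cells, 10 in T cells and 8 in NK cells. Glycolysis genes had 1 call each in classical monocytes, dendritic cells and the wider neutrophil gate, Eno1 lower in all 3, and 0 elsewhere. The genes of phagocytes around damaged tissue had 2 calls of 13 in microglia, Fabp5 and Spp1, and 1 of 13 in macrophages, Spp1. Both microglial calls turned below 1 with cells thinned to 2000 UMIs before gating (Fabp5 0.968, Spp1 0.314), Fabp5 was 0.581 when thinned after gating, and 1 cell held 89.4% of the Spp1 UMIs in Nr4a1-/- microglia. Of 13 mitochondrially encoded genes 12 were counted over all cells with 0 calls (median 0.07).

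Heat shock chaperone genes set the control pair apart from the laser pair. In control cells the summed level of 14 such genes was 2542 CPM in WT and 5333 in Nr4a1-/- among B cells, 4545 and 7982 among phagocytes and 4070 and 7660 among dendritic cells. In laser cells it was 2357 and 3147 CPM, 4200 and 4817 CPM, and 4491 and 4732 CPM. In B cells Hsp90aa1, a cytosolic chaperone, was at 2.69 in control and 1.22 after laser, and the mitochondrial Hspd1 at 2.63 and 1.23. The difference between the pairs was not tested.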
